A study of Mus musculus with 12 samples.

Results

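The genes described are 10 markers that separate fibroblasts of the synovial lining from those of the sublining, out of 55413 genes in the table. They were taken by symbol and all 10 were found: 3 lining genes (Prg4, Clic5, Tspan15), 5 sublining genes (Thy1, Cd34, Cd248, Dpp4, Pi16) and 2 genes shared by both layers (Pdpn, Pdgfra). RNA had been sequenced in 12 libraries of cultured synovial fibroblasts, grown from paws of the inbred mouse strain BALB/c after collagenase digestion. All paws had received monosodium urate crystals, the crystals of gout, and all cells had been kept for 5 passages. The 4 groups held 3 libraries each. In the non-primed vehicle group, right paws had crystals on day 9 only. In the primed vehicle group, left paws had crystals on day 0 and again on day 9. The primed in vivo group was injected in the same way, in mice given I-BET151 intraperitoneally at 20 mg/kg per day starting 1 day ahead of the first crystals. The primed in vitro group consisted of cells from primed paws kept with 1 µM I-BET151 for 24 h. I-BET151 blocks the bromodomains of BET proteins, which bind acetylated histones. RNA was taken on day 18. Cells of 2 to 3 paws were pooled per culture, priming went with the side of the body, and the labels give no age or sex. Whether the 3 cultures of a group stem from separate animals is not stated, so p-values measure only the spread between these cultures, which may be technical.

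The synovium has a thin lining that faces the joint cavity and a looser sublining with vessels beneath it. Lining fibroblasts make lubricin, the boundary lubricant of cartilage, and in arthritis are linked to cartilage damage. Sublining fibroblasts carry THY1, surround vessels and are linked to inflammation, and cells with DPP4 and PI16 are regarded as a progenitor-like state in many tissues. Position in the sublining is known to depend in part on Notch signals from endothelium.

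The values are regularized log (rlog) expression values on a log2 scale. Depth cannot be read from such values and is unknown, and differences of weakly expressed genes are understated. Before any group comparison, the libraries fell apart by the transcripts of another cell type. The mean of 8 melanocyte markers lay between 14.65 and 15.53 in the 3 non-primed libraries and in vivo libraries 2 and 3, and between 6.47 and 7.67 in the other 7. The mean of the 8 shared fibroblast genes outside the 10 members, collagen type I among them, was 7.31 to 11.32 in the same 5 libraries and 14.57 to 15.43 in the other 7. The label synovial fibroblasts is therefore met by the defining markers in 7 libraries, while in 5 pigment cell markers stand above them. Every non-primed library belongs to those 5, so priming and this split cannot be told apart. In bulk RNA fewer cells of a type and less RNA per cell cannot be told apart either.

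**Figure D1:**
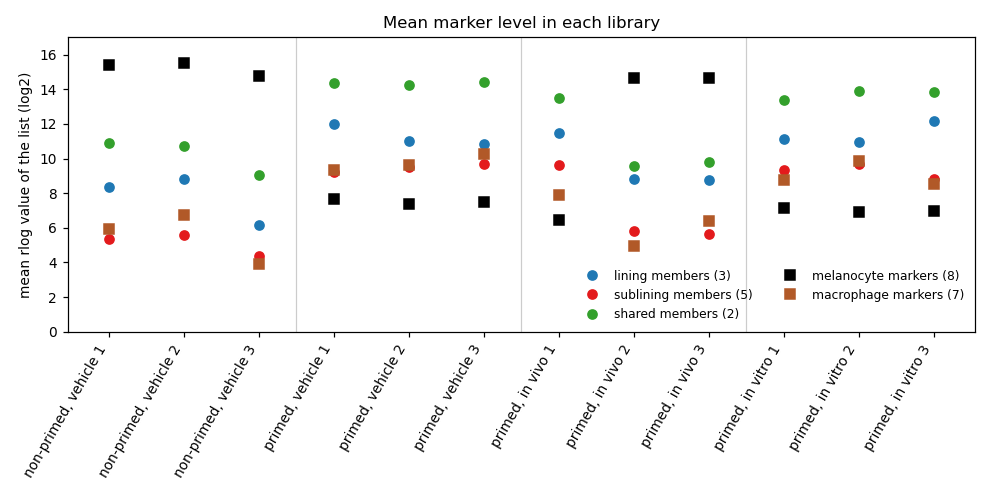
Mean rlog value (log2, vertical axis) of the lining, sublining and shared members (circles) and of the melanocyte and macrophage markers (squares) in each of the 12 libraries (horizontal axis, vertical lines part the groups). Melanocyte markers are at 14.65 or above in the 3 non-primed libraries and in vivo libraries 2 and 3, where the 3 member classes are lowest.

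Levels of different genes were compared after subtracting the log2 of the exon length in kilobases. On this scale, the mean level in primed vehicle libraries was highest for Pdpn at 15.55 ± 0.34 (SD, n = 3), a mucin-like membrane protein of stromal cells. Prg4, the lubricin gene, followed at 13.82 ± 0.47 and Thy1, a glycolipid-anchored surface protein, at 12.82 ± 0.46. Cd248, the stromal glycoprotein endosialin, stood at 9.93 ± 0.29. Pdgfra, a receptor for platelet-derived growth factor, and Cd34, a sialomucin of vascular and stromal progenitor cells, stood at 8.91 ± 0.38 and 8.65 ± 0.31, and their values overlapped. Tspan15, a membrane protein that guides the protease ADAM10, and Clic5, a chloride channel family protein tied to the cell cortex, stood at 6.51 ± 1.05 and 5.26 ± 0.76 and also overlapped. Dpp4, a membrane peptidase, was at 3.28 ± 0.34 and Pi16, a secreted or membrane-bound peptidase inhibitor, was the lowest at 1.50 ± 0.02. Abundant transcripts were thus found in each class, Prg4 for the lining, Thy1 for the sublining and Pdpn for both. In the in vitro group the order was the same except that Cd34 came before Pdgfra (7.96 ± 0.46), and Thy1 with Cd248, Cd34 with Pdgfra, Pdgfra with Tspan15 and Dpp4 with Pi16 overlapped. In the non-primed group Pdpn led at 10.78 ± 1.07, apart from the next gene, Cd248. From Cd248 on, Prg4, Tspan15, Thy1, Pdgfra, Cd34 and Clic5 followed with overlap at each step, and were followed by Dpp4 and Pi16, each apart from its neighbour. In the in vivo group the order was Pdpn (12.24 ± 2.60), Prg4, Cd248, Thy1, Tspan15, Cd34, Pdgfra, Clic5, Dpp4 and Pi16, and of these neighbours only Pdgfra and Clic5 did not overlap.

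**Figure D2:**
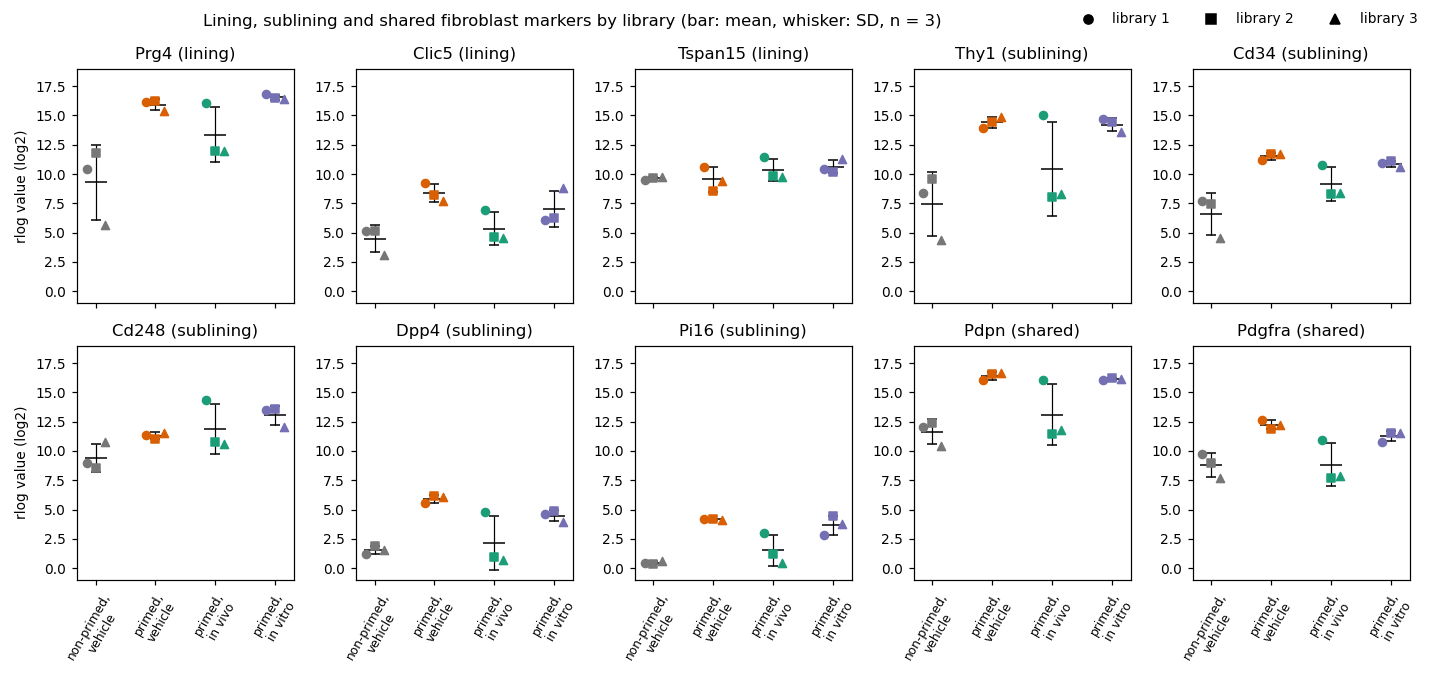
The rlog value (log2, vertical axis) of each of the 10 members in the 4 groups (horizontal axis), with 1 symbol per library, the mean as a bar and the SD as whiskers (n = 3). In vivo library 1 (circle) lies apart from in vivo libraries 2 and 3 for Prg4 (16.09 against 12.00 and 11.97) and Thy1 (15.08 against 8.01 and 8.30), whereas Tspan15 lies between 8.55 and 11.45 in all libraries.

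Primed and non-primed vehicle libraries were compared to ask what an earlier crystal exposure leaves in cultured fibroblasts. Of the 9 members that could be tested, 8 were higher in primed libraries and Tspan15 was not called, where 27.7% of the 16459 genes tested were called higher. Lining, sublining and shared markers were all among the 8, with differences from 1.89 for Cd248 to 6.96 for Thy1. Pi16 had a mean under 3 over the 12 libraries and stayed out of the test. Dpp4 (overall mean 3.53) passed that filter through the libraries in which it was high, so its call is no support for the rise of its class.

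Among the lining genes, Prg4 (chr1:150449412-150466165, GRCm38) stood at 10.39, 11.78 and 5.67 in non-primed libraries 1, 2 and 3 and at 16.16, 16.20 and 15.38 in primed ones. The groups did not overlap, and non-primed library 3 was the lowest by a wide margin. The rise of Prg4 was 6.63 ± 1.47 on the log2 scale (SE, 3 libraries on each side, adjusted p = 0.0105, limma). Clic5 (chr17:44188584-44280172) was at 5.13, 5.13 and 3.13 against 9.22, 8.21 and 7.74, and rose by 3.93 ± 0.68 (adjusted p = 0.00411, limma). Tspan15 (chr10:62185396-62231251) was at 9.53, 9.62 and 9.73 against 10.64, 8.55 and 9.43. Its non-primed values lay inside the primed range, the difference was -0.08 ± 0.50 (95% interval -1.30 to 1.13), and it did not pass (adjusted p = 0.904, limma). Over these 6 libraries Tspan15 ran from 8.55 to 10.64 and Prg4 from 5.67 to 16.20. Relative to the mean of the 8 other shared fibroblast genes, Tspan15 was at -0.80, -1.71 and 2.41 in non-primed libraries and at -4.40, -6.38 and -6.00 in primed ones. On the same scale Prg4 was at 0.05, 0.46 and -1.64 against 1.12, 1.27 and -0.05, which lie closer together than its own levels.

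Promoter sequences are given for the latter 2 lining genes, and RefSeq (GRCm38.p6) gave a promoter for 7 of the 10 members. Shown are the 250 bases before the start site, chr17:44188322-44188571 (plus strand) for Clic5 and chr10:62231219-62231468 (minus strand) for Tspan15. Capitals mark matches on either strand to 5 motifs. These were the TATA box, spelled TATAAA, the GC box, spelled GGGCGG, the pentamer CCAAT, the core of the Notch effector RBPJ, spelled TGGGAA, and the AP-1 site, spelled TGANTCA.
Clic5: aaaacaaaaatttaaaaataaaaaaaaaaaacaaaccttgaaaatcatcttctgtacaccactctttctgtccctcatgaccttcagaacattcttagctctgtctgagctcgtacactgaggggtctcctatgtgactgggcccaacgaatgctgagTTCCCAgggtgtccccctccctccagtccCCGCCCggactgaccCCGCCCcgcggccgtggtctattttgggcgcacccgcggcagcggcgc
Tspan15: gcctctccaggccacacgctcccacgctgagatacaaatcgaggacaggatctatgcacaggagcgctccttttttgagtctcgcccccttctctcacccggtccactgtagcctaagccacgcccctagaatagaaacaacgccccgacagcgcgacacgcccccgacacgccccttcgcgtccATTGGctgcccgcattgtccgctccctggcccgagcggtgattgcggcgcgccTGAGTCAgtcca
Clic5 held 2 GC boxes and 1 RBPJ core, and Tspan15 held 1 CCAAT pentamer and 1 AP-1 site, with none of these overlapping another. Of 32851 mouse promoter windows of this length, 32.7% held a GC box, 21.6% an RBPJ core, 33.8% the CCAAT pentamer, 6.75% an AP-1 site and 12.4% a TATA box. Tspan15 had 23 CpG dinucleotides in its window and Clic5 13, against a median of 6, and the other 5 members with a promoter had 2 to 6. A match is only a match of letters in this window.

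Among the sublining genes, Thy1 (chr9:44043384-44048579) was at 8.42, 9.58 and 4.33 in non-primed libraries and at 13.91, 14.47 and 14.83 in primed ones, and rose by 6.96 ± 1.28 (adjusted p = 0.005, limma). Cd34 (chr1:194938819-194961279) was at 7.73, 7.46 and 4.56 against 11.16, 11.70 and 11.70, and rose by 4.93 ± 0.83. Dpp4 (chr2:62330073-62412231) was at 1.22, 1.86 and 1.54 against 5.55, 6.18 and 6.08, and rose by 4.40 ± 0.32 (adjusted p = 0.000288, limma). In all 3 genes every primed value was above every non-primed value, and the share of all genes tested without overlap was not counted. Pi16 (chr17:29317680-29330593) was at 0.42, 0.40 and 0.64 against 4.19, 4.18 and 4.15. With no filter on low values the Pi16 difference was 3.69 ± 0.33 and passed (adjusted p = 0.00143, limma). Its non-primed values lay far under the filter's minimum of 3, so this call is no support for a rise of the sublining genes. Cd248 (chr19:5068078-5070682) had the smallest difference of the sublining genes, at 8.97, 8.53 and 10.74 against 11.38, 10.99 and 11.56. The highest of its non-primed values was in library 3, in which Prg4, Clic5, Thy1, Cd34, Pdpn and Pdgfra had their lowest. Relative to the 8 other shared genes, Cd248 was at -1.37, -2.79 and 3.43 in non-primed and at -3.67, -3.94 and -3.87 in primed libraries. Cd248 rose by 1.89 ± 0.56 (adjusted p = 0.0313, limma), a call that was lost without any 1 of non-primed libraries 1 and 2 and primed libraries 1, 2 and 3 (adjusted p 0.061 to 0.0981), and that ranged from 0.000188 to 0.112 over its 13 alternatives.

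The shared genes rose as well. Pdpn (chr4:143267431-143299564) was at 12.07, 12.43 and 10.42 in non-primed libraries and at 16.02, 16.59 and 16.62 in primed ones, a rise of 4.77 ± 0.52 (adjusted p = 0.000787, limma). Pdgfra (chr5:75152292-75198215) was at 9.77, 9.00 and 7.69 against 12.64, 11.87 and 12.21, a rise of 3.42 ± 0.52. Neither gene had overlapping groups, a trait whose share over all genes tested was not counted.

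Most of the other genes of the 2 layers rose too. Of 8 other lining genes, 7 were tested and 6 rose, with Cd55, a complement regulator, at 5.60 ± 1.01, Has1, a hyaluronan synthase, at 5.04 ± 0.62, the protease Htra4 at 4.81 ± 0.47 and the growth factor Hbegf at 3.56 ± 0.36. Has1 and Col22a1, another of the 6, had non-primed means of 1.69 and 1.47 and passed the filter through the libraries in which they were high, so their calls are no support for the list. The laminin receptor subunit Itga6 had a difference of -1.24 ± 0.42 and was not called. Of 12 other sublining genes, 11 were tested and 9 rose, among them Anxa3 (6.88 ± 1.43), the chemokine Cxcl12 (6.67 ± 1.14), the receptor ligand Gas6 (6.03 ± 1.37) and Ly6a (5.90 ± 1.31). Dpt, 1 of the 11, had a non-primed mean of 2.82 and passed the filter through the libraries in which it was high, so it is no support for the list. All 8 other shared genes rose, led by the small proteoglycans Lum (7.84 ± 1.07) and Dcn (7.51 ± 1.53), collagen gene Col1a2 (6.60 ± 1.47) and Cdh11, the cadherin of synovial fibroblasts (6.25 ± 1.18). The median difference was 3.56 for the other lining, 4.94 for the other sublining and 6.22 for the other shared genes, against 0.05 over all genes tested. Of 8 Notch and Wnt genes, 7 were tested, and the Wnt amplifier Rspo3 (4.74 ± 0.23) and the Notch targets Hey1 (3.01 ± 0.61) and Hes1 (2.37 ± 0.60) rose while the Notch ligand Dll4 fell (-1.52 ± 0.41), with a primed mean of 2.56, under the filter's minimum.

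Markers of other cells moved along with these genes. All 8 melanocyte markers fell, and their mean was 14.74 to 15.53 in non-primed and 7.36 to 7.67 in primed libraries. All 6 macrophage markers tested, of 7, rose, with list means of 3.92 to 6.76 and 9.36 to 10.28. Of 5 endothelial markers, which bear on Cd34, 3 were tested and 2 rose, with means of 1.92 to 2.38 and 4.16 to 4.95. Kdr, 1 of the 3 tested, had a non-primed mean of 2.61 and passed the filter through the libraries in which it was high. Of 5 mural cell markers, which bear on Thy1 and Cd248, 3 rose and the means were 7.34 to 9.80 and 10.84 to 12.16. T cells also carry Thy1 and Dpp4. Their list (Cd3e, Cd3d, Cd3g, Cd2) had means between -0.87 and -0.31 over all 12 libraries, with Cd2 listed at 0 throughout and no member of the list reaching the filter. The part of these lists in the rise of the members was not tested.

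Vehicle and in vivo treated libraries of primed paws were compared to ask what BET inhibition in the animal changes in these cells. By the test of all 3 libraries, 2 of the 9 members fell, Clic5 and Pdgfra, and none rose, where 13.8% of all genes were called lower. The 3 treated libraries did not behave alike, and their values are given one by one. In vivo libraries 2 and 3, the melanocyte-rich ones, had low lining, sublining and shared markers, while in in vivo library 1 Prg4, Thy1, Cd34 and Pdpn were within 1 log2 unit of the vehicle mean, Cd248 and Tspan15 were above it by more, and Clic5, Dpp4, Pi16 and Pdgfra were below it by more.

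**Figure D3:**
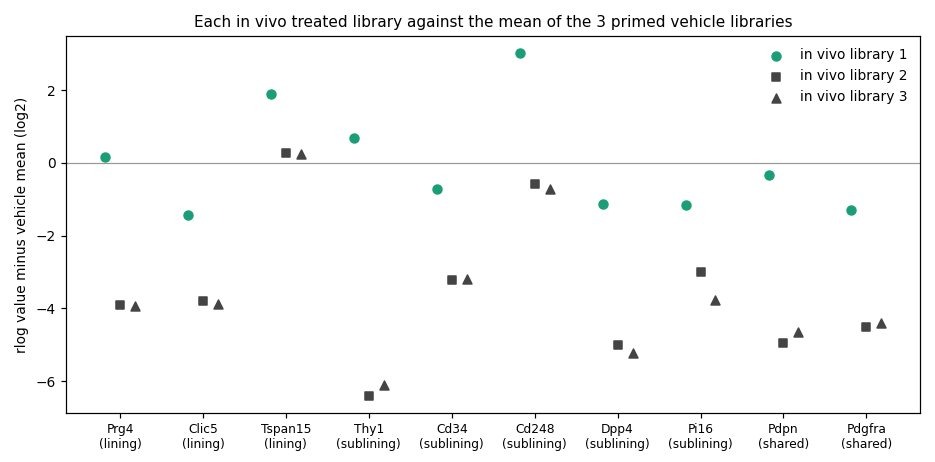
For each of the 10 members (horizontal axis), the rlog value of each in vivo treated library minus the mean of the 3 primed vehicle libraries (log2, vertical axis). In vivo library 1 lies near or above 0 for Prg4, Thy1 and Cd248 (0.17, 0.68 and 3.02), and libraries 2 and 3 lie below -3 for Prg4, Clic5, Thy1, Cd34, Dpp4, Pdpn and Pdgfra.

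In the 3 in vivo libraries, in order, Prg4 was at 16.09, 12.00 and 11.97, against 15.91 ± 0.47 (SD) in vehicle. Its difference was -2.56 ± 1.16 (adjusted p = 0.14, limma) and the groups overlapped. Clic5 was at 6.96, 4.59 and 4.51 against 8.39 ± 0.76, below every vehicle value, and fell by 3.04 ± 0.80 (adjusted p = 0.0438, limma). Tspan15 was at 11.45, 9.82 and 9.79 against 9.54 ± 1.05, with a difference of 0.81 ± 0.69 (adjusted p = 0.384, limma). Of the 3 lining genes, Clic5 alone was low in each treated library.

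Thy1 was at 15.08, 8.01 and 8.30, against 14.40 ± 0.46 in vehicle, and did not pass (-3.94 ± 1.93, adjusted p = 0.163, limma). Cd34 was at 10.81, 8.30 and 8.34 against 11.52 ± 0.31, below every vehicle value, and narrowly missed the threshold (-2.37 ± 0.71, adjusted p = 0.0596, limma). Dpp4 was at 4.79, 0.93 and 0.71 against 5.93 ± 0.34, also without overlap, and missed it as well (-3.79 ± 1.13, adjusted p = 0.059, limma). Pi16 was at 3.01, 1.18 and 0.42 against 4.17 ± 0.02 and was not tested. Cd248 went its own way, at 14.33, 10.73 and 10.59 against 11.31 ± 0.29: library 1 was above and libraries 2 and 3 were below the vehicle range. Its mean difference of 0.58 ± 1.03 did not pass (adjusted p = 0.677, limma).

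Pdpn was at 16.09, 11.45 and 11.75 against 16.41 ± 0.34 and did not pass (-3.31 ± 1.26, adjusted p = 0.0983, limma). Pdgfra was at 10.93, 7.73 and 7.83 against 12.24 ± 0.38, below every vehicle value, and fell by 3.41 ± 0.90 (adjusted p = 0.0443, limma). In in vivo library 1 the differences from the vehicle mean were -1.43 for Clic5 and -1.30 for Pdgfra, and -1.14 and -1.16 for Dpp4 and Pi16.

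These calls turned on single libraries. With in vivo libraries 2 and 3 alone against vehicle, 8 of the 9 members fell, where 36.8% of all genes were called lower. In that setting Thy1 differed by -6.25 ± 0.27, Pdpn by -4.81 ± 0.21, Prg4 by -3.93 ± 0.26 and Cd248 by -0.65 ± 0.18. Dpp4 differed by -5.11 ± 0.31, but lay at 0.93 and 0.71, under the filter's minimum of 3. It passed the filter through the libraries in which it was high, so its call is no support for a fall of its class. With in vivo library 1 alone, assumed to vary like the vehicle libraries, Cd248 rose by 3.02 ± 0.25 (adjusted p = 0.013, limma) and no other member was called, where 3.48% of all genes were called higher. Over the 14 alternatives the adjusted p of Cd248 ranged from 0.013 to 0.824. Prg4 and Thy1 then had differences of 0.17 ± 0.38 and 0.68 ± 0.37. Clic5 and Pdgfra lost their calls without any 1 of the vehicle libraries and of in vivo libraries 2 and 3 (adjusted p 0.105 to 0.148).

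Over the lists outside the members, 0 of 7 other lining genes tested were called, with Has1 at -3.42 ± 1.03 (adjusted p = 0.0606, limma) and Cd55 at -2.93 ± 0.94 (adjusted p = 0.0688, limma). Of 11 other sublining genes, 2 fell, Col15a1, a basement membrane collagen of perivascular fibroblasts (-3.18 ± 0.62), and the guidance factor Sema3c (-2.89 ± 0.61). Of the 8 other shared genes, Dcn fell (-4.65 ± 0.53). Rspo3 fell (-2.94 ± 0.71). Dll4 rose (1.55 ± 0.39), from vehicle values of 3.19, 1.89 and 2.62, whose mean is under the filter's minimum of 3. It passed the filter through the libraries in which it was high, so its call is no support for the list. The list medians were -1.79, -2.63 and -4.04 for other lining, other sublining and other shared genes, against -0.05 over all genes tested. In the fit of all 12 libraries 1 rose and 4 fell of the other lining genes, 3 fell of the other sublining and 4 of the other shared genes. That fit called 6531 of the 16459 genes tested, 45.1% of them higher. With in vivo library 1 alone, Sema3c differed from vehicle by -1.48 ± 0.25, Dcn by -3.54 ± 0.40 and Rspo3 by -1.27 ± 0.22. Dkk3, a secreted Wnt-related protein, differed by 1.26 ± 0.14. These differences rest on 1 treated library, with the spread taken from vehicle. The 4 genes were picked after their values were seen, so they give no result about their lists. The melanocyte list stood at 6.47, 14.67 and 14.65 and the macrophage list at 7.90, 4.93 and 6.39 in in vivo libraries 1, 2 and 3, with vehicle at 7.36 to 7.67 and 9.36 to 10.28. Their part in the members' values was not tested. None of the 8 melanocyte markers was called (median 5.31) and 5 of 6 macrophage markers fell.

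**Figure D4:**
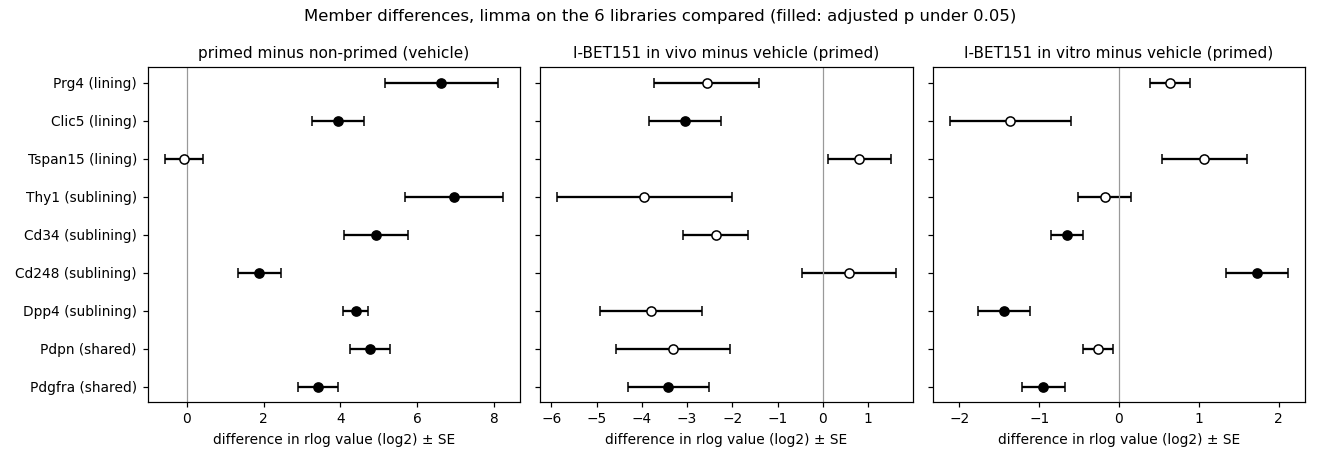
Differences in rlog value (log2, horizontal axis, each panel with its own range) with standard errors for the 9 tested members in 3 comparisons, from limma on the 6 libraries compared, with filled points for an adjusted p under 0.05. In the right panel Cd248 lies at 1.73 and Dpp4, Pdgfra and Cd34 lie at -1.44, -0.95 and -0.65.

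Cells of primed paws kept with I-BET151 in culture were compared with vehicle libraries to ask what 24 h of BET inhibition changes. No library on either side was rich in melanocyte transcripts, with list means of 6.92 to 7.12 in treated and 7.36 to 7.67 in vehicle libraries, and of the 8 markers the pigment cell regulator Mitf fell (-1.65 ± 0.18). The layers' most abundant markers, Prg4, Thy1 and Pdpn, were not called, and sublining markers were called in both directions. Cd248 rose, and Dpp4, Cd34 and the shared gene Pdgfra fell. These are 1 of 9 members higher and 3 lower, where 13.4% of all genes were called higher and 16.9% lower. With so few members these counts give no result about the layers. Called and not called members also lay close in size, with Cd34 at -0.65 (called) and Prg4 at 0.64 (not called).

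Cd248 was at 13.47, 13.55 and 12.09 in treated libraries 1, 2 and 3 and at 11.38, 10.99 and 11.56 in vehicle. Every treated value lay above every vehicle value, and the rise was 1.73 ± 0.39 log2 units (adjusted p = 0.0174, limma). Dpp4 was at 4.65, 4.87 and 3.95 against 5.55, 6.18 and 6.08, without overlap, and fell by 1.44 ± 0.33 (adjusted p = 0.019, limma). Cd34 was at 10.94, 11.11 and 10.56 against 11.16, 11.70 and 11.70 and fell by 0.65 ± 0.20 (adjusted p = 0.0475, limma), with a gap of less than 0.1 between the closest values of the groups. Pdgfra was at 10.76, 11.53 and 11.57 against 12.64, 11.87 and 12.21 and fell by 0.95 ± 0.27 (adjusted p = 0.038, limma). Cd248 and Dpp4, both sublining genes, thus moved in opposite directions in the same libraries.

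Thy1 was at 14.66, 14.41 and 13.58 in treated libraries against 13.91, 14.47 and 14.83, and the groups overlapped. Its difference was -0.18 ± 0.33 with a 95% interval from -0.96 to 0.59. Pdpn was at 16.04, 16.27 and 16.12 against 16.02, 16.59 and 16.62, a difference of -0.26 ± 0.19 (-0.70 to 0.17). Prg4 was at 16.82, 16.46 and 16.40 against 16.16, 16.20 and 15.38. Each treated value was above each vehicle value, and the difference of 0.64 ± 0.25 (0.06 to 1.23) did not pass after adjustment (adjusted p = 0.0908, limma). Tspan15 was at 10.40, 10.19 and 11.26 against 10.64, 8.55 and 9.43, a difference of 1.07 ± 0.53 (-0.19 to 2.33). Pi16 was at 2.81, 4.44 and 3.77 against 4.19, 4.18 and 4.15, and with no filter its difference of -0.50 ± 0.47 did not pass.

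Clic5 split the treated libraries, at 6.09 and 6.23 in in vitro libraries 1 and 2 and 8.78 in library 3, against 9.22, 8.21 and 7.74 in vehicle. The difference of -1.36 ± 0.76 (-3.15 to 0.44) did not pass, and without in vitro library 3 it was -2.23 ± 0.44 and passed (adjusted p = 0.0155, limma, within a range of 0.0155 to 0.485 over 13 alternatives). Of the 8 other lining genes, 3 ran close to Clic5 over these 6 libraries, Cd55, Col22a1 and Has1. The hyaluronan synthase Has1 was at 7.42, 5.89 and 6.89 in vehicle and 5.37, 5.54 and 6.97 in treated libraries, and the lining collagen Col22a1 at 5.55, 3.72 and 4.45 and at 3.37, 3.18 and 5.15. Over these 6 libraries Clic5 had a Pearson correlation of 0.90 with Cd55, 0.89 with Col22a1 and 0.87 with Has1, and of -0.40 with Prg4 and 0.10 with Tspan15. The other 5 lining genes had 0.72 (Itga6), 0.37 (Hbegf), 0.35 (Itgb8), 0.34 (Crtac1) and -0.26 (Htra4). Tspan15 had its closest correlation among the lining genes with the cartilage acidic protein gene Crtac1 (0.94). Crtac1 did not pass the filter, with a mean of 1.33 over the 12 libraries. It ran from 0.28 to 3.22 over these 6, so this correlation rests on values near the floor. The 3 lining members thus did not vary together from library to library. Some marker lists of other cells were also high in primed vehicle library 1 and in vitro library 3. The Schwann cell list had means of 9.35 and 9.61 there against 7.83 to 8.73 in the other 4 libraries. The mural cell list had 12.16 and 11.45 against 10.40 to 11.16, though its gene Acta2 (16.55 and 15.65) was not higher there. The muscle progenitor list, of which no gene passed the filter, had 2.89 and 2.40 against 0.70 to 1.33. The chondrocyte list went the other way, with 6.52 and 6.32 against 7.27 to 8.01. The part of these lists in these values was not tested.

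**Figure D5:**
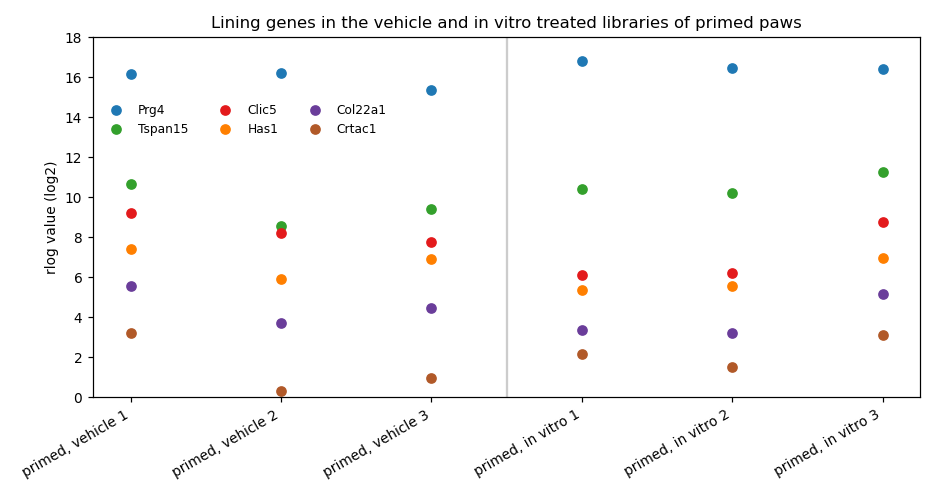
The rlog value (log2, vertical axis) of 6 lining genes in the 3 vehicle and 3 in vitro treated libraries of primed paws (horizontal axis), with 1 point per gene and library. Clic5, Has1 and Col22a1 are higher in vehicle library 1 and in vitro library 3 (Clic5 9.22 and 8.78) than in in vitro libraries 1 and 2 (Clic5 6.09 and 6.23), whereas Prg4 lies between 15.38 and 16.82 in all 6.

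The promoter of Dpp4, the member that fell most in culture, is shown for the 250 bases at chr2:62412232-62412481 (minus strand, GRCm38.p6), with the same 5 motifs in capitals.
Dpp4: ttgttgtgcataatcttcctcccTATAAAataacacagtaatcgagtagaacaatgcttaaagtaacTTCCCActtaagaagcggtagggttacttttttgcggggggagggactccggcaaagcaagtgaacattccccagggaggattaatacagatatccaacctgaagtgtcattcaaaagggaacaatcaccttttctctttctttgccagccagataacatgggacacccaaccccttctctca
It held 1 TATA box, 227 bases before the start site, and 1 RBPJ core at 183 bases before it, and had 4 CpG dinucleotides. The windows of Cd34, Pdgfra and Pdpn held none of the 5 motifs, and that of Pi16 held 1 CCAAT pentamer.

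The calls in culture were near the threshold and depended on the libraries and the fit. Cd248 was called under 9 of 13 alternatives (adjusted p 0.00172 to 0.29), Dpp4 under 7 of 12 (0.0196 to 0.358), Pdgfra under 5 of 13 (0.0378 to 0.517) and Cd34 under 2 of 13 (0.02 to 0.695). In a fit of all 12 libraries, whose spread includes the uneven in vivo and non-primed groups, 0 of 9 members and 4.51% of all genes were called. Cd248 lost its call without vehicle library 2 or in vitro library 1 or 2, and Dpp4 without vehicle library 2 or 3 or in vitro library 1. Pdgfra lost it without vehicle library 1 or 3 or in vitro library 1 or 2, and Cd34 without vehicle library 2 or 3 or any 1 of the in vitro libraries.

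Of 7 other lining genes tested in culture, 1 rose, the protease Htra4 (1.38 ± 0.30). Of 11 other sublining genes 2 rose, the Wnt antagonist Sfrp1 (1.37 ± 0.31) and Dkk3 (0.79 ± 0.24), and 3 fell, Col15a1 (-1.92 ± 0.45), Anxa3 (-1.04 ± 0.29) and Sema3c (-0.79 ± 0.15). None of the 8 other shared genes was called, with Dcn at -2.02 ± 0.68 (adjusted p = 0.0634, limma) and Lum at -0.91 ± 0.42 (adjusted p = 0.143, limma). Among the Notch and Wnt genes Dll4 rose (1.32 ± 0.36), from vehicle values of 3.19, 1.89 and 2.62, whose mean is under the filter's minimum of 3. Dll4 passed the filter through the libraries in which it was high, so its call is no support for the list. These counts stand beside 13.4% of all genes called higher and 16.9% lower. In the fit of all 12 libraries 0 genes of these 4 lists were called, Htra4 included (adjusted p = 0.41, limma). Of the sublining list 1 rose and 1 fell with the replicate number as a block, and 0 rose and 1 fell with no filter. The list medians were -0.50, -0.19 and -0.24 for other lining, sublining and shared genes, against -0.02 over all genes. Of the macrophage markers 1 of 6 fell, and of the mural markers 2 of 5 fell.

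The comparisons of the 2 treatments share the vehicle libraries, so the values are set side by side. Cd248 was at 12.09 to 13.55 in the in vitro libraries and at 14.33 in in vivo library 1, with vehicle at 10.99 to 11.56. Dpp4 was at 3.95 to 4.87 and 4.79, with vehicle at 5.55 to 6.18. Pdgfra was at 10.76 to 11.57 and 10.93, with vehicle at 11.87 to 12.64. Cd34 was at 10.56 to 11.11 and 10.81, with vehicle at 11.16 to 11.70. In each of these genes the 4 treated libraries low in melanocyte transcripts lay on 1 side of the vehicle range. They are the members called in culture, so their in vitro values differ from vehicle by selection. Only in vivo library 1 is a further value, and the share of all genes with this pattern was not counted.

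In vitro and in vivo treated libraries were also compared directly. No gene was called by limma (0% of 16459), although 3153 genes had an unadjusted p under 0.05, Prg4 (3.21 ± 1.15) and Pdgfra (2.46 ± 0.91) among the members. Member differences were all positive, from 0.26 ± 0.54 for Tspan15 to 3.76 ± 1.94 for Thy1. Without in vivo library 1, 8 of 9 members were higher in the in vitro libraries (35% of all genes), and Tspan15 was not called. The differences of the 8 ran from 2.38 ± 0.43 for Cd248 to 6.07 ± 0.31 for Thy1. Dpp4, 1 of the 8, lay at 0.93 and 0.71 in in vivo libraries 2 and 3, under the filter's minimum of 3. It passed the filter through the libraries in which it was high, so its call is no support for its class. With in vivo library 1 alone none was called, and Tspan15, Thy1, Cd248 and Dpp4 had differences of -0.83 ± 0.43, -0.86 ± 0.42, -1.29 ± 0.60 and -0.30 ± 0.50.

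Correlations over all 12 libraries, a description of points that share the melanocyte split, were high both within and between the layers. Within the sublining Thy1 and Cd34 had a Pearson correlation of 0.96 and Dpp4 and Pi16 of 0.94, and within the lining Prg4 had 0.82 with Clic5 and 0.35 with Tspan15. Between the layers Prg4 had 0.97 with Cd34 and 0.96 with Thy1, and Thy1 had 0.98 with the shared gene Pdpn. Cd248 had 0.36 with Clic5 and 0.66 with both Thy1 and Pdpn. The balance of the classes, the mean of the 3 lining members minus that of the sublining members without Pi16, was 1.77, 1.98 and 0.88 in non-primed and 1.51, 0.15 and -0.19 in primed vehicle libraries. It was 0.25, 1.81 and 1.77 in in vivo and 0.17, -0.03 and 2.10 in in vitro libraries, so that all groups overlapped on this scale, which is not corrected for gene length. By correlation over the 12 libraries the genes most like Thy1 were Col1a1 (0.996), Slit3 and Col4a2, those most like Prg4 were the thrombin receptor gene F2r (0.996), Lynx1 and Sqor, and those most like Pdpn were Mcub (0.998), Tpm2 and Angpt1. Clic5 was most like the endothelin receptor gene Ednrb (0.984), Matn4 and Kcnj4, Cd248 most like Cyb5d2 (0.985), Pip4k2a and Tcta, and Tspan15 most like Foxd2 (0.92), Tmem38a and Efhd1. For Cd34 they were 2900026A02Rik (0.992), Layn and Spp1, for Dpp4 Lasp1 (0.989), Spcs1 and Gpx8, for Pi16 Aldh3b1 (0.984), Gm38211 and Acat3, and for Pdgfra Mdp1, Riok3 and Mast4 (each 0.992). Over the 6 primed vehicle and in vitro libraries the most alike genes were others, Armc6 (0.998) for Prg4, Akirin1 (0.997) for Clic5, Cyfip2 (0.997) for Tspan15, Gpc4 (0.995) for Thy1 and Txndc12 (0.997) for Cd34. There they were Gm47863 (0.997) for Cd248, Igsf6 (0.997) for Dpp4, Ntpcr (0.992) for Pi16, Gm14167 (0.992) for Pdpn and Hrc (0.994) for Pdgfra. Each was picked as the highest among 16459 genes over few points.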

How the data were processed

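RNA was prepared with a stranded kit for polyadenylated RNA, per the labels' protocols. The submitters' processing notes name build GRCm38, DESeq2 1.24.0, STAR 2.6.1c, cutadapt 1.18 and Subread 1.6.1 with featureCounts. The annotation release, the settings, including strand, and the blind option of the transformation: not given in the sources used here. Deposited were the authors' regularized log (log2) values of 55413 genes, from -2.24 to 20.6. With no depth, no count test or counting interval was used. All 12 values are 0 for 19136 genes. Symbols, coordinates and exon lengths are from GENCODE M21. Where antisense genes overlap a member, reads may be shared.

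Genes with a mean of at least 3 over 12 libraries were tested (16459). For each comparison limma 3.58.1 (R 4.3.3, variance trend) was fitted to the 6 libraries compared, since the groups differ in spread. P-values are two-sided, Benjamini-Hochberg adjusted over all genes, and called under 0.05. A gene is said to rise or fall only if called. Overlap of groups is described gene by gene, and its share over all genes was not counted in any comparison. An exact permutation test of 3 against 3 cannot go below 0.1 and was not used. The members and lists were chosen with earlier results of these data known. All 10 members are named. Of each other list up to 4 called genes with the largest difference are named, or the 2 largest if none was called. Itga6, Has1, Col22a1, Crtac1 and the genes of in vivo library 1 alone were named after their values were seen. Alternatives were the fit of all 12 libraries, no filter, a minimum mean of 5, no variance trend, median centring, quantile normalization, the replicate number as a block, each library left out, and in vivo library 1 alone. The fit was tested on simulated data in which both groups had 1 shared spread, unlike the data. Changes of 1 log2 unit were recovered in 19.4% to 50.7% of changed genes, depending on the comparison. Changes of 4 log2 units were recovered in 78.8% to 97%. A gene that was not called may therefore still differ.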

Additional observations from a re-analysis of the deposited data

How the results depend on the processing

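In primed against non-primed libraries the 8 member calls became 7 or 8 under every alternative run, and Tspan15 (-0.08) ranged from -0.63 to 0.41 with 1 library left out, positive without primed vehicle library 2. For in vivo against vehicle, 3950 genes were called, and 6531 in the fit of all 12 libraries, 322 with the replicate block, 1809 with in vivo library 1 alone and 459 to 11092 with 1 library left out. The 2 members called became 5 with all 12 libraries, 1 with no variance trend or with quantile normalization, 0 with no filter and with the replicate block, and 0 to 8 with 1 library left out. With in vivo library 1 alone both lost their calls and 1 other member, Cd248, was called higher. Cd248 ranged from -0.65 (without in vivo library 1) to 1.22 with 1 left out, and Prg4 and Thy1 to 0.17 and 0.68 with it alone. For in vitro against vehicle, 4983 genes were called, 743 with all 12 libraries and 2520 to 4612 with 1 left out. The 4 members became 0 with all 12 libraries, 2 with no filter, no variance trend, quantile normalization or the replicate block, and 0 to 5 with 1 left out. Thy1 ranged from -0.43 to 0.13 with 1 left out, positive without vehicle library 3 (0.03) or in vitro library 3 (0.13). For in vitro against in vivo, 0 genes and 0 members were called, and 0 to 10604 genes and 0 to 8 members with 1 library left out. There Tspan15 ranged from -0.06 to 0.81 with 1 left out, negative without in vivo library 2 or 3 or in vitro library 3. With in vivo library 1 alone Tspan15, Thy1, Cd248 and Dpp4 turned to -0.83, -0.86, -1.29 and -0.30. The larger standard errors of in vitro against vehicle in the fit of all 12 libraries (0.93 in place of 0.39 for Cd248) come with the spread of the other groups. Other causes were not tested. Quantile normalization moved the median of all genes from 0.05 to -0.24 in the first comparison and from -0.05 to 0.19 in the second. The share of calls that were higher moved from 56.7% to 42.1%, from 42.4% to 59.5% and from 44.3% to 57.1% in the 3 comparisons with vehicle. Median centring moved it to 50.3%, 57.1% and 57.7%, and in in vivo against vehicle no filter moved it to 30.9%. Same-numbered libraries had correlations of deviations from -0.27 to 0.16, and unlike-numbered ones from -0.44 to 0.42. This check gave no sign that the numbers pair the libraries, but with 3 libraries per group it cannot exclude a pairing. With the replicate block limma's adjusted p was 0.0565 for Clic5 and 0.0687 for Pdgfra in in vivo against vehicle, and 0.0755 for Cd34 and 0.0946 for Pdgfra in in vitro against vehicle, and no other member call changed. The block gave 6861 genes called in primed against non-primed in place of 8051.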
